A study of Mus musculus with 4 samples.

Results

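Npy1r, P2rx3, Vwa5b1 and D430019H16Rik are 4 protein-coding genes that stood among the largest decreases when mouse small cell lung cancer (SCLC) cells were exposed to a CDK7 inhibitor. They were picked by symbol from the 54232 genes of the count table because their counts were far lower in the treated libraries, and all 4 passed the filter on low counts, as did 16749 genes in all. The cells were of a single line, RPP631, whose genotype the labels do not give. Bulk RNA was sequenced after 48 h in DMSO, the vehicle, or after 48 h in 100 nM YKL, the compound that the series names as its CDK7 inhibitor, with 2 libraries in each group. The labels do not say whether the libraries of a group came from separate cultures, so errors and p-values reflect only how much these samples spread. Because the choice of genes rests on the YKL and DMSO libraries compared here, their difference is given as a description and without a test.

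Only Npy1r and P2rx3 are known as receptor genes. Npy1r encodes the Y1 receptor, a G protein-coupled receptor for neuropeptide Y and peptide YY that acts through Gi proteins to lower cyclic AMP. P2rx3 encodes a subunit of the P2X family of cation channels, which open when ATP binds outside the cell, and is best known from sensory neurons, where it assembles alone or with P2X2. Vwa5b1 encodes a protein with a von Willebrand factor A domain, and D430019H16Rik is a RIKEN gene. No receptor role is attributed to either here. CDK7 belongs to TFIIH, phosphorylates RNA polymerase II as genes start to be read, and also switches on cell cycle kinases.

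The libraries held between 29817387 and 34189709 counts assigned to genes. All 12 neuroendocrine markers examined had counts. They summed to 5122 and 4416 CPM in DMSO and to 4010 and 3821 CPM in YKL, where CPM is the TMM-scaled level relative to library size. Of the 12, edgeR called 0 higher and 1 lower, against 2.1% and 1.44% of all genes tested. The 22 sensory neuron genes in the table summed to 978 to 1418 CPM. Most of this came from Calca, at 530 to 783 CPM, and Ret, at 276 to 443 CPM. Calca is also among the 12 neuroendocrine markers, so it is counted in both sums. Sums for other cells were lower, at 1.47 to 2.87 CPM for 5 tuft-like markers, 12.9 to 45.4 CPM for 7 fibroblast markers, and 2.33 to 4.08 CPM for 5 endothelial markers. The 6 immune markers summed to 1.82 and 2.51 CPM in DMSO and to 5.87 and 4.25 CPM in YKL, and the pan-leukocyte gene Ptprc had counts of 0 and 2 in DMSO against 25 and 23 in YKL (adjusted p = 0.0392, edgeR). That call ended without YKL replicate 1 or 2 (adjusted p = 0.181 and 0.166). The part of such differences in the values below was not tested. In bulk RNA, fewer cells that express a gene and less of its RNA per cell cannot be told apart.

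Npy1r (ENSMUSG00000036437) lies on the plus strand of chromosome 8, 66697192 to 66706792 in mm10, with 5 exonic blocks. It was covered by 3508 and 1431 counts in the DMSO libraries and by 412 and 381 in the YKL libraries, each pair given as replicate 1 and then 2, as throughout. On the CPM scale these are 105 and 45.4 in DMSO and 13.4 and 11.8 in YKL. Both YKL libraries were below both DMSO libraries, and DMSO replicate 1 was the highest by far. The mean was 75.1 ± 42.0 CPM in DMSO and 12.6 ± 1.146 CPM in YKL (SD, n = 2 in each group), so that 16.8% of the DMSO level was left, a log2 fold change of -2.57 ± 0.41 (standard error).

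D430019H16Rik (ENSMUSG00000094910) lies on the plus strand of chromosome 12, 105453856 to 105493095, with 2 exonic blocks. It resembled Npy1r in level and in shape, with counts of 3423 and 1581 in DMSO against 326 and 542 in YKL. These correspond to 102 and 50.2 CPM in DMSO and 10.6 and 16.8 CPM in YKL. Here too DMSO replicate 1 was highest, and unlike for the other genes the YKL libraries were also apart, by 1.58-fold. The means were 76.2 ± 36.9 and 13.7 ± 4.37 CPM, with 18.0% left and a log2 fold change of -2.47 ± 0.41.

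P2rx3 (ENSMUSG00000027071) lies on the minus strand of chromosome 2, 84998583 to 85037462, with 15 exonic blocks. It had counts of 273 and 550 in DMSO against 77 and 82 in YKL, or 8.16 and 17.4 CPM against 2.51 and 2.55 CPM. In this gene DMSO replicate 2 was the highest library, and the YKL libraries were nearly equal. The means were 12.8 ± 6.57 and 2.53 ± 0.0229 CPM, with 19.8% left and a log2 fold change of -2.34 ± 0.44. Its exons share 51 of 2789 bases with those of Ssrp1, a histone chaperone gene on the other strand whose start overlaps that of P2rx3. Ssrp1 had 9413 to 13101 counts per library and a log2 fold change of -0.17 ± 0.19 (adjusted p = 0.655). How reads in the shared bases were assigned is not given in the sources used here.

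Vwa5b1 (ENSMUSG00000028753) lies on the minus strand of chromosome 4, 138565360 to 138635884, with 24 exonic blocks. It had counts of 565 and 818 in DMSO against 130 and 149 in YKL, or 16.9 and 25.95 CPM against 4.24 and 4.62 CPM. DMSO replicate 2 was again the highest library, but by less than for P2rx3. The means were 21.4 ± 6.41 and 4.43 ± 0.270 CPM, with 20.7% left and a log2 fold change of -2.27 ± 0.33. Apart from Ssrp1 over P2rx3, no gene of the table shared exonic bases with any of the 4.

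**Figure D1:**
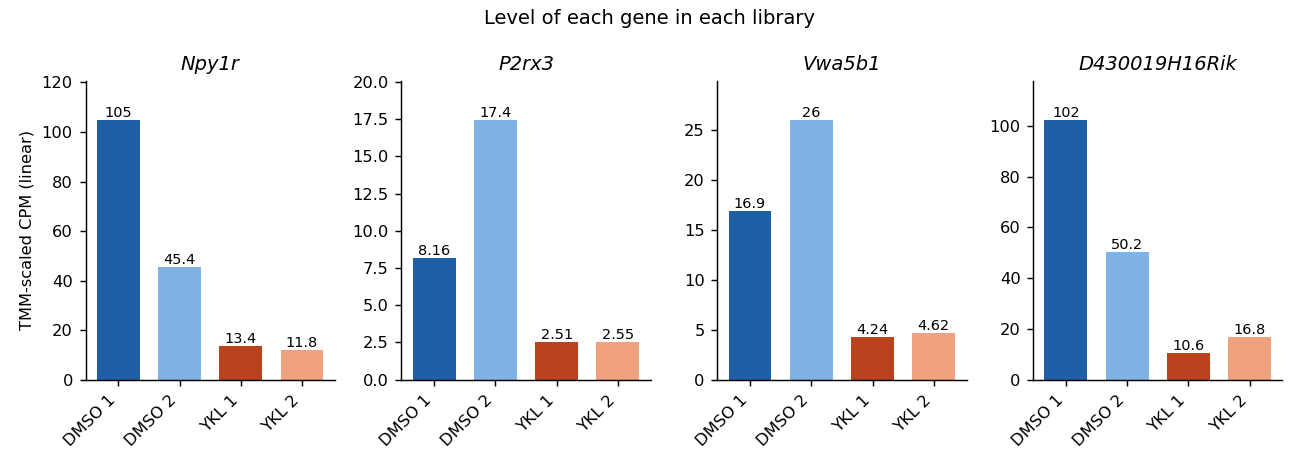
TMM-scaled CPM of each gene (linear axes that start at 0 and differ between panels) in the 2 DMSO and the 2 YKL libraries, 1 bar per library. In every panel both YKL bars are below both DMSO bars, while the taller DMSO bar is replicate 1 for Npy1r and D430019H16Rik and replicate 2 for P2rx3 and Vwa5b1.

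Set against length, the order of the DMSO levels was Npy1r, D430019H16Rik, P2rx3 and Vwa5b1, at means of 21.8, 13.2, 4.59 and 2.74 CPM per kb of exon. Npy1r ran from 13.1 to 30.4 and D430019H16Rik from 8.67 to 17.7 CPM per kb, so these neighbours in the order overlapped. P2rx3, at 2.93 to 6.26, and Vwa5b1, at 2.16 to 3.33, overlapped as well, whereas each gene of the upper pair was above each of the lower pair in both DMSO libraries. The order of the means was the same in YKL, at 3.66, 2.37, 0.907 and 0.568 CPM per kb. There the ranges of Npy1r (3.42 to 3.89) and D430019H16Rik (1.84 to 2.91) were apart.

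The size of each decrease depends on which DMSO library is taken as the reference. The ratio of the lowest DMSO to the highest YKL library was 3.38 for Npy1r, 2.98 for D430019H16Rik, 3.21 for P2rx3 and 3.65 for Vwa5b1. The ratio of the highest DMSO to the lowest YKL library was 8.87, 9.62, 6.94 and 6.12 in the same order. With DMSO replicate 1 left out, the log2 fold change of Npy1r was -1.84, and with DMSO replicate 2 left out that of P2rx3 was -1.72. Vwa5b1 had the narrowest range when each library was left out in turn, from -2.55 to -1.96.

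The DMSO libraries differed by 2.31-fold for Npy1r, 2.14-fold for P2rx3, 2.04-fold for D430019H16Rik and 1.54-fold for Vwa5b1. Over the 11543 tested genes averaging 5 CPM or more, the median difference between the DMSO libraries was 1.20-fold, and 5.20% of genes differed by at least 2-fold. A difference as large as that of Npy1r was found in 3.27% of them, as large as that of D430019H16Rik in 4.82%, of P2rx3 in 4.14% and of Vwa5b1 in 14.8%. The direction also set the genes apart. A DMSO replicate 1 level at least 2-fold above replicate 2, as in Npy1r and D430019H16Rik, occurred in 108 of these genes, and the opposite, as in P2rx3, in 492. Between the YKL libraries the median difference was 1.149-fold, and only D430019H16Rik, of the 4, stood in the outer part of that distribution, with 5.75% of genes at least as far apart.

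**Figure D2:**
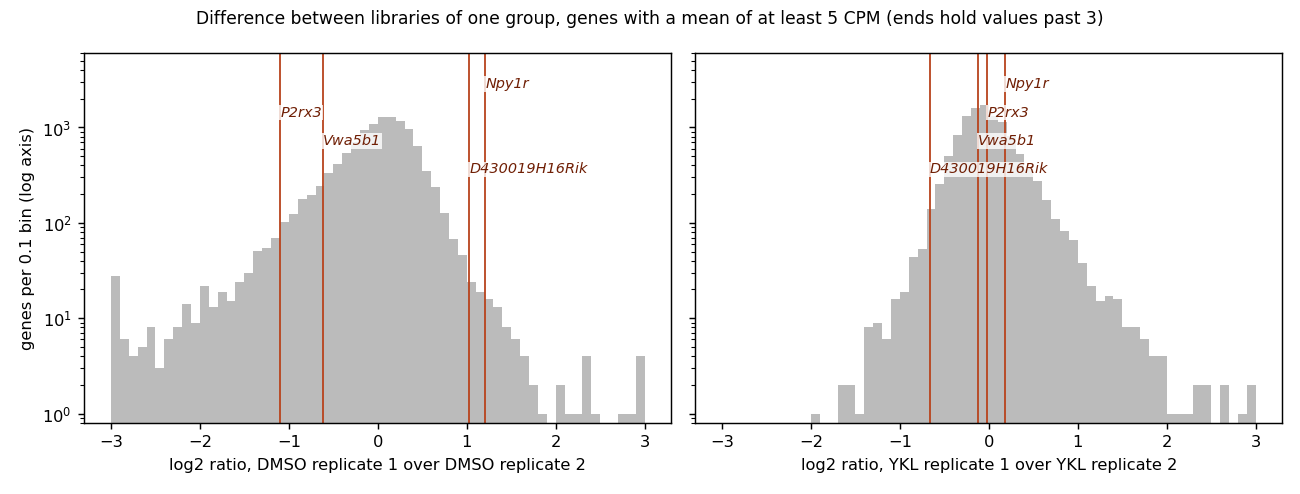
Histograms of the log2 ratio between the 2 DMSO libraries (left) and between the 2 YKL libraries (right) over 11543 genes averaging 5 CPM or more, on a log count axis, with the 4 genes as lines. In DMSO, Npy1r and D430019H16Rik lie in the right tail at 1.21 and 1.03, P2rx3 in the left tail at -1.10 and Vwa5b1 at -0.62, while in YKL only D430019H16Rik (-0.66) is away from the centre.

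All 4 genes were among the 242 called lower in YKL by edgeR's quasi-likelihood test at a Benjamini-Hochberg adjusted p under 0.05. Those 242 are 1.44% of the genes tested, and since the genes were chosen for this contrast nothing is read from the count, nor from their groups not overlapping, which in this direction held for 25.3% of genes tested. A ranking by log2 fold change took the 228 called protein-coding genes lower in YKL that averaged 5 CPM or more, with groups not overlapping. Npy1r ranked 2, D430019H16Rik 4, P2rx3 5 and Vwa5b1 6. Slc7a11, a cystine transporter gene, ranked 1 at -2.66, and Brd3os ranked 3 at -2.50. Just behind Vwa5b1 came Eif4ebp1, a translation repressor gene, at -2.15 and Kdm8 at -2.12. Over all called genes, of any type and level, Npy1r ranked 7, D430019H16Rik 9, P2rx3 11 and Vwa5b1 13. The authors' deposited table placed Npy1r 1, Vwa5b1 5, P2rx3 6 and D430019H16Rik 36 from the lowest of its 15936 log2 fold changes, at -2.23, -2.01, -1.93 and -1.59.

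Centred log2 CPM over the 4 libraries separated the genes into pairs. The Euclidean distance was 0.34 between P2rx3 and Vwa5b1 and 0.61 between Npy1r and D430019H16Rik, against 1.24 to 1.65 for the pairs across. Among the other 11542 genes averaging 5 CPM or more, the nearest to Npy1r were Brd3os (0.39), Slc7a11 (0.49) and Sox21, a transcription factor gene (0.58). Nearest to D430019H16Rik were Neurog3, a transcription factor gene of endocrine differentiation (0.48), Dpysl3 (0.55) and Slc7a11 (0.56). The nearest to P2rx3 were the hormone gene Fgf21 (0.25), Vwa5b1 (0.34) and Sfta3-ps (0.56), and to Vwa5b1 they were P2rx3 (0.34), Txnrd3 (0.35) and Fgf21 (0.40). With 4 libraries in 2 groups such distances combine the size of the decrease with the differences within each group.

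RefSeq promoter sequences (GRCm38.p6) were found for 3 of the 4 genes, namely Npy1r, Vwa5b1 and D430019H16Rik. The sequences before the RefSeq starts of D430019H16Rik and Vwa5b1 are shown, with CpG sites in capitals. That of Npy1r is not shown because most of its bases lie in annotated exons of the gene itself. The stretch of D430019H16Rik (chr12:105453606-105453855, plus strand) covers the 250 bases before its start. That of Vwa5b1 (chr4:138624013-138624242, minus strand) covers 230 bases outside its annotated exons.
D430019H16Rik: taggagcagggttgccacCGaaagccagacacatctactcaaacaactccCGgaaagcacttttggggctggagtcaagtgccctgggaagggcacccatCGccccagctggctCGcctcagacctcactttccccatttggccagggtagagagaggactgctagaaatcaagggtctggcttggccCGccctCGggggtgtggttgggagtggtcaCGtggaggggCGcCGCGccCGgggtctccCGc
Vwa5b1: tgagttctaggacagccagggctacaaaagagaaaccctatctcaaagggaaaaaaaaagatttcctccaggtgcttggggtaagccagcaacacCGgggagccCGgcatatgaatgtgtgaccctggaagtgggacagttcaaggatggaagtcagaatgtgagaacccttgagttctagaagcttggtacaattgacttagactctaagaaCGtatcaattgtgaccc
In the 250 bases before the start, D430019H16Rik had 12 CpG sites and 63.2% G and C, Npy1r had 10 and 53.6%, and Vwa5b1 had 3 and 46.4%. Over 32851 promoters of the same length the medians were 6 CpG sites and 52.4%. More CpG sites than in D430019H16Rik were present in 31.5% of promoters, than in Npy1r in 35.6% and than in Vwa5b1 in 62.2%. The 3 windows thus did not share one base composition, and P2rx3 had none to compare. Npy1r and Vwa5b1 also have an annotated start further upstream, so these windows describe 1 start of each. Of the 250 bases, 230 in Npy1r and 20 in Vwa5b1 lie in the gene's own annotated exons. The values of Npy1r, including its motif matches, therefore describe mostly exon.

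Searched on both strands, the letters of the E-box CAGCTG and of the E-box CACGTG each occurred once before the start of D430019H16Rik, beginning 145 and 34 bases upstream. The GC box GGGCGG also occurred once there, beginning 63 bases upstream. Of all promoters, 13.001%, 6.02% and 32.7% held these letters. No match to them was present in the windows of Npy1r and Vwa5b1. Neither TATAAA, held by 12.4% of all promoters, nor the cAMP response element TGACGTCA, held by 1.55%, was present in any of the 3 windows. These motifs do not overlap one another in their matches here.

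Whether relatives of the 4 genes moved with them was examined in gene lists that the choice of the 4 did not use. The lists themselves were chosen with earlier results of these data known. No other gene of the neuropeptide Y family was called, and all but Npy5r had fewer than 100 counts per library. Npy5r, the Y5 receptor gene, had counts of 343 and 183 in DMSO against 275 and 237 in YKL, with a log2 fold change of 0.02 ± 0.38 (adjusted p = 0.983, edgeR), and the YKL values lay between the DMSO values. Its gene lies 9.06 kb from Npy1r on the opposite strand, with the starts facing away from each other. DMSO replicate 1 was the higher DMSO library for Npy5r, as for Npy1r. Npy, the ligand gene, had counts of 26 and 1 in DMSO against 77 and 9 in YKL (adjusted p = 0.577), with overlapping groups and most of the counts in the libraries numbered 1. Pyy had counts of 0 and 3 in DMSO against 2 and 0 in YKL, Ppy 0 and 0 against 3 and 3, and Npy4r 3 and 4 against 6 and 3. Npy2r and Npy6r had 0 counts in all 4 libraries. Of the 2 genes tested besides Npy1r, edgeR called 0 and DESeq2 called 0, against 3.54% and 9.55% of all genes tested. An unadjusted p under 0.05 was found in 0, against 11.3% higher and 9.9% lower over all genes. Few calls would be found among 2 genes at those shares. The log2 fold change of Npy had a standard error of 1.49, since the libraries within each group differed widely.

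Downstream of Gi-coupled receptors, G protein subunits, adenylyl cyclases, GIRK channels, arrestins and receptor kinases were mostly not called. Of 24 tested genes 1 was called higher and 0 lower, against 2.1% and 1.44% of all genes tested (3.54% in either direction), with a median log2 fold change of 0.04 against -1e-04 for all genes. The called gene was Adcy3, an adenylyl cyclase, with counts of 884 and 703 in DMSO against 1418 and 1656 in YKL (log2 fold change 1.003 ± 0.21, adjusted p = 0.035). Without YKL replicate 1 or 2 the call ended (adjusted p = 0.138 and 0.226). It shares 1380 of 6246 exonic bases with Cenpo on the other strand, which had 911 to 1306 counts per library, so its reads are uncertain. The most abundant genes of the list were Gnai2, a Gi alpha subunit gene, at a log2 fold change of 0.32 (adjusted p = 0.345), and Adcy1 at 0.23 (adjusted p = 0.583).

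Receptor genes for other peptides were detected widely, since 59 of 65 had counts. Of 28 tested, edgeR called 0 and DESeq2 called 6, against 3.54% and 9.55% of all genes tested. At an unadjusted p under 0.05 there were 6 higher and 3 lower, against 11.3% and 9.9% of all genes. The median log2 fold change was 0.44. Oprd1, the delta opioid receptor gene, and Sstr2, a somatostatin receptor gene, were the most abundant, with log2 fold changes of -0.38 (adjusted p = 0.253) and -0.66 (adjusted p = 0.0901).

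No other P2X gene was called in either direction. P2rx4 had counts of 506 and 549 in DMSO against 438 and 359 in YKL (log2 fold change -0.36 ± 0.28, adjusted p = 0.513). P2rx7 had 65 and 80 counts against 95 and 50 (0.05 ± 0.50, adjusted p = 0.972). P2rx2, whose product can pair with P2X3, had 14 and 21 counts against 23 and 18 (adjusted p = 0.849). P2rx5 had 9 and 2 counts against 12 and 11, P2rx6 had 12 and 11 against 18 and 18, and P2rx1 had 3 and 4 against 8 and 4 and was not tested. P2rx3 and P2rx4 were thus the P2X genes with the most counts in DMSO, at 4.59 CPM per kb for P2rx3 and 2.32 for P2rx4. Of the 5 tested besides P2rx3, edgeR called 0 and DESeq2 called 0, against 3.54% and 9.55% of all genes tested. An unadjusted p under 0.05 was found in 0, against 11.3% higher and 9.9% lower over all genes. Few calls would be found among 5 genes at those shares.

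Among 6 tested genes for P2Y and adenosine receptors, 1 was called higher and 0 lower, against 2.1% and 1.44% of all genes. Adora1, the A1 adenosine receptor gene, had counts of 40 and 40 in DMSO against 176 and 138 in YKL, and rose 4.06-fold (log2 fold change 2.02 ± 0.45, adjusted p = 0.0411). Leaving out YKL replicate 1 or 2 ended this call (adjusted p = 0.268 and 0.164). The gene shares 1162 of 5785 exonic bases with Mybph, which had at most 1 count per library. P2ry1 and Adora2a, the most abundant of the list, had log2 fold changes of 0.82 (adjusted p = 0.111) and 0.15 (adjusted p = 0.853). Of 10 tested genes for the release of ATP and the breakdown of nucleotides outside the cell, edgeR called 0 and DESeq2 3. Over all genes tested edgeR called 3.54% and DESeq2 9.55%. At an unadjusted p under 0.05 there were 1 higher and 2 lower, against 11.3% and 9.9% of all genes tested. Nt5e, the ecto-5'-nucleotidase gene, had a log2 fold change of -0.71 (adjusted p = 0.0901) and Panx1, an ATP release channel gene, one of 0.33 (adjusted p = 0.389).

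Other ligand-gated channels held called genes in the direction opposite to P2rx3. Of 39 tested, 3 were called higher and 0 lower, against 2.1% and 1.44% of all genes, and the median log2 fold change was 0.38. Chrna3, a nicotinic receptor subunit gene, rose 3.45-fold, from 273 and 447 counts in DMSO to 1124 and 1302 in YKL (adjusted p = 0.0197). Gabrd, a GABA-A receptor subunit gene, rose from 146 and 290 to 725 and 788 counts (log2 fold change 1.83 ± 0.36, adjusted p = 0.0345), and Gabrr1 from 5 and 3 to 55 and 36 counts (3.53 ± 0.67, adjusted p = 0.0285). Without YKL replicate 2 all 3 calls ended (adjusted p = 0.0872, 0.151 and 0.0887), and without YKL replicate 1 those of Gabrd and Gabrr1 did (adjusted p = 0.123 and 0.184). In all 3 the groups did not overlap, an arrangement in this direction that 27% of all tested genes showed. The abundant glutamate receptor gene Gria1 had a log2 fold change of -0.77 (adjusted p = 0.0797).

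Of 17 tested genes known from sensory neurons, 0 were called higher and 1 lower, against 2.1% and 1.44% of all genes, and the median log2 fold change was -0.11. Scn9a, a voltage-gated sodium channel gene, fell from 2027 and 1955 counts to 1005 and 915 (log2 fold change -1.003 ± 0.19, adjusted p = 0.0292), a call that ended without YKL replicate 1 or 2 (adjusted p = 0.116 and 0.205). It shares 180 of 12772 exonic bases with Gm13629. Calca, the gene of calcitonin and CGRP, and the receptor kinase gene Ret were the most abundant, at -0.24 (adjusted p = 0.557) and -0.27 (adjusted p = 0.559). Trpv1, the heat-gated channel gene of nociceptors, is named here after its values were seen. It had counts of 6 and 8 in DMSO against 20 and 17 in YKL and was not called (log2 fold change 1.43 ± 0.65, adjusted p = 0.242, edgeR).

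The nearest relatives of Vwa5b1 were not called, and their mean levels were higher in YKL. Vwa5b2 had counts of 357 and 515 in DMSO against 659 and 608 in YKL (log2 fold change 0.58 ± 0.29, adjusted p = 0.287), with groups that did not overlap. Vwa5a had 106 and 33 counts against 177 and 67 (0.89 ± 0.67, adjusted p = 0.495), with both libraries numbered 1 higher than those numbered 2. Of 7 tested genes with related domains besides Vwa5b1, 1 was called higher and 0 lower, against 2.1% and 1.44% of all genes. Vwa1, an extracellular matrix gene, rose from 336 and 507 to 1064 and 1132 counts (1.42 ± 0.27, adjusted p = 0.0286), and was not called without YKL replicate 1 or 2 (adjusted p = 0.117 and 0.135). It shares 760 of 3623 exonic bases with Gm26840 and 153 with Atad3aos, and these had 19 to 66 counts per library. Parp4 and Vwa8, the most abundant, had log2 fold changes of 0.24 (adjusted p = 0.54) and -0.17 (adjusted p = 0.708).

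**Figure D3:**
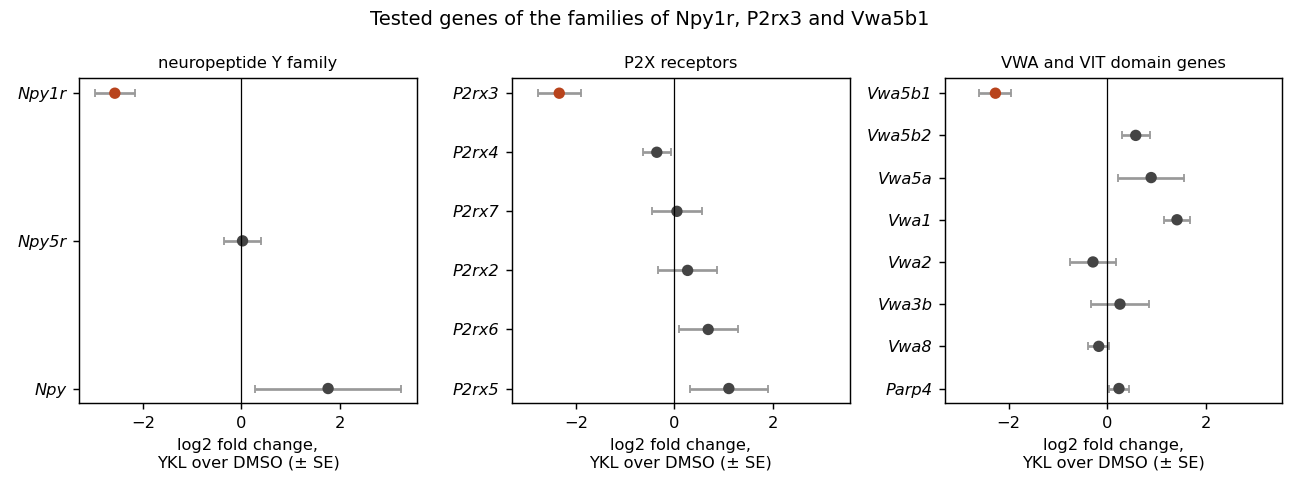
Log2 fold change of YKL over DMSO with its standard error for the tested genes of the neuropeptide Y family, the P2X family and the genes with von Willebrand factor A or related domains, 2 libraries per group. Npy1r, P2rx3 and Vwa5b1 (red) lie between -2.57 and -2.27, while the other tested genes lie between -0.36 (P2rx4) and 1.76 (Npy).

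Over all these lists, 138 genes besides the 4 were tested, of which edgeR called 6 higher and 1 lower, against 2.1% and 1.44% of all genes tested, and DESeq2 called 24, against 9.55%. Their median log2 fold change was 0.24, against -1e-04 for all genes. Total count scaling ended all 7 edgeR calls. Called genes numbered 1 each without YKL replicate 1 and without YKL replicate 2, 14 without DMSO replicate 1 and 34 without DMSO replicate 2. None of the 7 calls held in both refits that left out a YKL library, each of which left 1 library in that group. Calls over all genes also fell in those refits, so ended calls there were not particular to these 7 genes. Log2 fold changes were 0.85 to 3.88 in the refits of the 6 that rose and -1.11 to -0.91 in those of Scn9a.

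Within 500 kb of a gene body, 123 other genes were annotated, of which 47 were tested. EdgeR called 2 higher and 1 lower, against 2.1% and 1.44% of all genes tested. At an unadjusted p under 0.05 there were 3 higher and 9 lower, against 11.3% and 9.9% of all genes, and DESeq2 called 6, against 9.55%. The median log2 fold change of these neighbours was -0.18, against -1e-04 for all genes, and 28 of the 47 were below 0. In 16 both YKL libraries were below both DMSO libraries and in 9 above, against 25.3% and 27% of all genes.

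Around Npy1r, 5 genes were tested. EdgeR called 0 and DESeq2 called 1, against 3.54% and 9.55% of all genes tested. At an unadjusted p under 0.05 there were 0 higher and 1 lower, against 11.3% and 9.9% of all genes. Besides Npy5r, the tested genes were Naf1, Tma16, March1 and Gm39185. Naf1, a box H/ACA RNP assembly gene 153 kb away, had counts of 3914 and 2636 in DMSO against 1769 and 1676 in YKL. Its log2 fold change was -0.87 ± 0.21 (adjusted p = 0.0547, edgeR). The values were -0.60 for Tma16 (adjusted p = 0.287), -0.36 for March1 (adjusted p = 0.738) and -0.33 for Gm39185 (adjusted p = 0.794). Naf1 was called in 5 of 12 refits.

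Around P2rx3, 15 genes were tested. EdgeR called 1 higher, the opposite direction, and 0 lower, against 2.1% and 1.44% of all genes tested. DESeq2 called 1, against 9.55%. At an unadjusted p under 0.05 there were 1 higher and 0 lower, against 11.3% and 9.9% of all genes. Slc43a1, an amino acid transporter gene 135 kb away, rose 6.93-fold, from 43 and 96 counts to 497 and 444 (log2 fold change 2.79 ± 0.45, adjusted p = 0.0191). Its call ended without YKL replicate 1 or 2 (adjusted p = 0.0708 and 0.0544). Tnks1bp1, 10.6 kb away and the only tested gene on its side, had a log2 fold change of -0.29 ± 0.20 (adjusted p = 0.446). Next along the chromosome beyond Slc43a1 were Timm10 (-0.31, adjusted p = 0.637) and Smtnl1 (0.49, adjusted p = 0.752).

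Around Vwa5b1, 18 genes were tested, with 1 called lower and 1 higher by edgeR and 3 called by DESeq2. Over all genes tested those shares were 1.44%, 2.1% and 9.55%. At an unadjusted p under 0.05 there were 7 lower and 2 higher, against 9.9% and 11.3% of all genes tested. Groups did not overlap in 8 that were lower and 4 that were higher, against 25.3% and 27% of all genes tested. Ubxn10, 74.0 kb away on the same strand, fell from 1972 and 1468 counts to 934 and 775 (log2 fold change -0.95 ± 0.22, adjusted p = 0.0482). It shares 217 of 4564 exonic bases with Pla2g2c. Htr6, a serotonin receptor gene 425 kb away, rose from 34 and 23 counts to 107 and 161 (2.28 ± 0.49, adjusted p = 0.0384). Neither was called without YKL replicate 1 (adjusted p = 0.136 for Ubxn10 and 0.117 for Htr6) or without YKL replicate 2 (adjusted p = 0.303 and 0.252), nor was Ubxn10 without DMSO replicate 1 (adjusted p = 0.0549). Pink1, a mitochondrial kinase gene 239 kb away that is named here after its values were seen, had counts of 1707 and 1038 in DMSO against 642 and 439 in YKL (-1.28 ± 0.29, adjusted p = 0.0519), and was called in 6 of 12 refits. The other nearest genes were Pla2g2c (0.03, adjusted p = 0.982) and Pla2g2d (1.51, adjusted p = 0.131) on one side, and Camk2n1 (-0.47, adjusted p = 0.181), Mul1 (-0.21, adjusted p = 0.632) and Cda (0.51, adjusted p = 0.73) on the other.

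Around D430019H16Rik, 9 genes were tested. EdgeR called 0 and DESeq2 called 1, against 3.54% and 9.55% of all genes tested. At an unadjusted p under 0.05 there were 0 higher and 1 lower, against 11.3% and 9.9% of all genes. The nearest on each side were Tunar, 69.9 kb away (log2 fold change 0.07, adjusted p = 0.964), and Bdkrb2, a bradykinin receptor gene 70.1 kb away, with counts of 62 and 71 in DMSO against 27 and 40 in YKL (-0.95 ± 0.50, adjusted p = 0.312). Further out were Glrx5 (-0.03, adjusted p = 0.964), Snhg10 (0.46, adjusted p = 0.619), Atg2b (-0.26, adjusted p = 0.527) and Gskip (-0.20, adjusted p = 0.709).

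**Figure D4:**
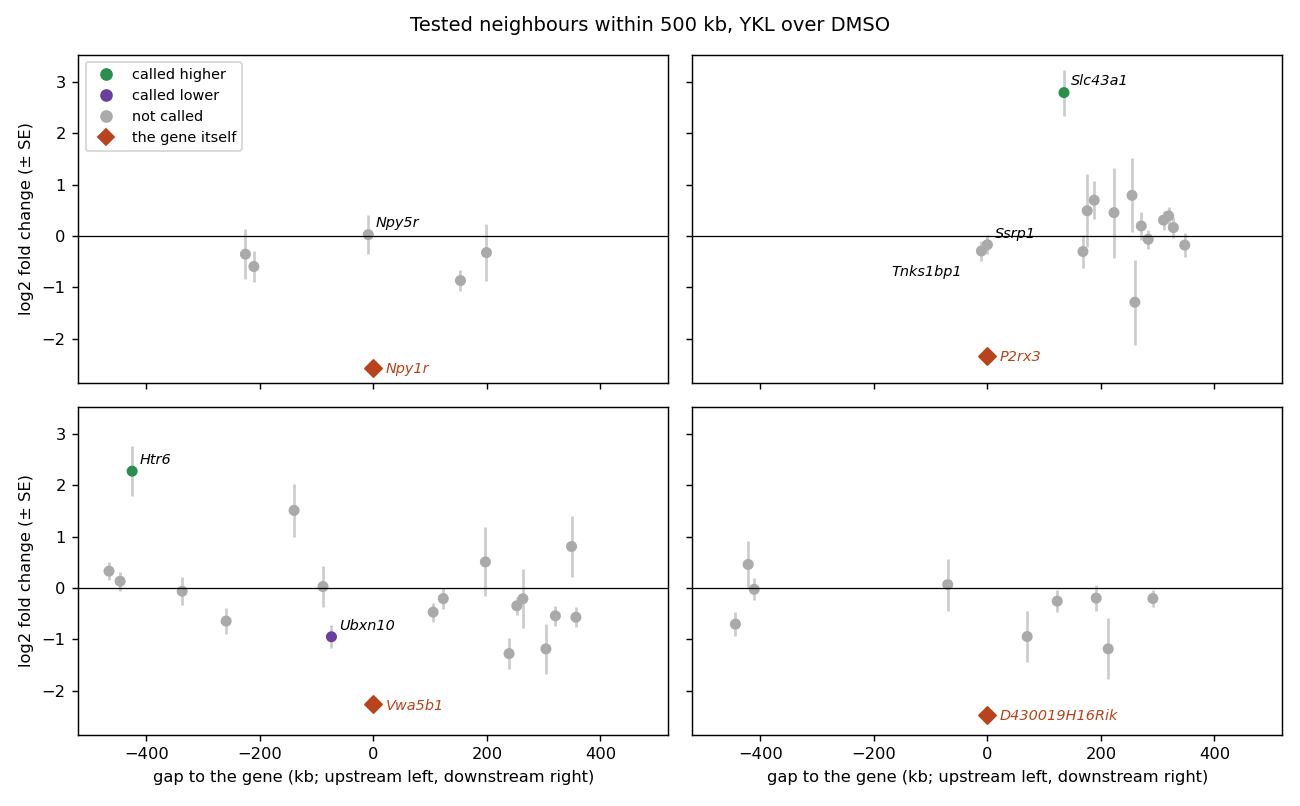
Log2 fold change of YKL over DMSO with its standard error (2 libraries per group) for tested genes within 500 kb of each gene, against the gap in kb, with upstream to the left. The 4 genes (red diamonds) are below every tested neighbour in their window, Slc43a1 and Htr6 are above 2, and Ubxn10 at -0.95 is the neighbour called lower.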

How the data were processed

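RNA of 4 samples of RPP631 cells, 2 in DMSO and 2 in 100 nM YKL for 48 h, was sequenced in bulk. Per the submitters' processing notes, the authors aligned reads to mm10 with STAR 2.5.2b, used featureCounts and ran DESeq2. The strand setting is not given in the sources used here. Raw counts are the unit of the deposited count table, which also gives each gene's exonic length. The authors' deposited comparison, per the file headers, lists a mean signal over libraries, log2 fold changes with errors, a score for the test, and each p-value before and after adjustment. Only its log2 values and their order were used.

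Counts were tested with edgeR 4.0.16 (R 4.3.3): filterByExpr (minimum count 10, minimum total 15), TMM scaling, robust quasi-likelihood fit with 2 residual degrees of freedom, and Benjamini-Hochberg adjustment over 16749 genes, called under 0.05. Standard errors were computed from each log2 fold change and its F. The procedure was tested on simulated data. Levels are relative, so a change shared by most transcripts would not show. The libraries of each pair differed by more than counting error (chi-square per degree of freedom 86.6 for DMSO and 37.1 for YKL). Alternatives were other scalings, filters, priors and tests, DESeq2 1.42.0, the replicate number as a block, and leaving out each library. The 4 genes, the gene lists and the rule for naming genes were chosen with earlier results of these data known. By that rule the text names relatives with counts, called genes and the 2 most abundant genes of each list, overlapping and the nearest tested neighbours, the 3 nearest genes by Euclidean distance (log2 CPM + 0.01), and the next genes in the order of decreases. A gene that the rule would name is not reported here. Trpv1, Pink1 and the genes of the closing observations were named outside it, after their values were seen. The older symbols Adrbk1 and Adrbk2, and Drgx, had no entry under that name.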

Additional observations from a re-analysis of the deposited data

How the results depend on the processing

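All 4 genes kept a lower level in YKL in the 12 refits, with log2 fold changes of -3.09 to -1.84 (Npy1r), -2.93 to -1.87 (D430019H16Rik), -2.78 to -1.72 (P2rx3) and -2.55 to -1.96 (Vwa5b1), and these extremes came from leaving out single libraries. With each library left out in turn, genes called over all genes ran from 71 to 2453, related genes from 1 to 34 and neighbours from 0 to 10, against 593, 7 and 3. The counts in the same order were 169, 0 and 0 with total count scaling, 331, 4 and 1 with upper quartile scaling, 1740, 21 and 7 with no filter, 236, 3 and 1 with a non-robust prior, and 1599, 24 and 6 by DESeq2. RLE scaling gave 5 neighbours and the filter of 5 CPM gave 1. The replicate number as a block gave 1387, 20 and 5. Same-numbered libraries shared deviations at a correlation of 0.15, and the labels do not say that the numbers mark a batch. Total count scaling ended the calls of all 10 related and neighbour genes named as called, at adjusted p = 0.0506 to 0.0813. The cause of these shifts was not tested. Of 716 values of 62 genes in the refits, 23 turned sign, all in genes not called with all libraries. Without the filter Npy5r had -0.011 and Pla2g2c -0.0039, and with the block P2rx7 had -0.0099. With single libraries left out the log2 fold change ran from -0.54 to 5.29 for Npy, -0.36 to 0.49 for Npy5r, -0.025 to 0.60 for P2rx2, -0.52 to 0.47 for P2rx7, -0.0029 to 0.30 for Adora2a, -0.16 to 1.73 for Cda, -0.32 to 0.22 for Glrx5, -0.93 to 0.10 for Gm39185, -0.76 to 0.14 for March1, -0.16 to 0.19 for Pla2g2c, -0.66 to 0.032 for Ret, -0.37 to 0.40 for Tunar, -0.019 to 1.90 for Vwa5a and -0.38 to 0.032 for Vwa8. The smallest DMSO and YKL counts of the 4 genes were 273 and 77, and genes with low counts in every library did not pass the filter and were not tested.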

Other observations

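Among receptor and nucleotide genes related to Npy1r and P2rx3, some had levels in YKL that lay apart from DMSO without being called by edgeR, in both directions, and the genes given here were named after their values were seen. At an unadjusted p under 0.05 the other peptide receptors had 6 higher and 3 lower, the P2Y and adenosine receptors 2 higher and 1 lower, and the genes of ATP release and nucleotide breakdown 1 higher and 2 lower, against 11.3% and 9.9% of all genes tested. On the higher side, Vipr2 and Vipr1, receptor genes for vasoactive intestinal peptide, had log2 fold changes of 1.59 ± 0.46 (adjusted p = 0.0893) and 0.84 ± 0.25 (adjusted p = 0.0939). Vipr2 had counts of 44 and 77 in DMSO against 158 and 199 in YKL, and Vipr1 of 655 and 756 against 1406 and 1028. Alpl, an alkaline phosphatase gene, had counts of 97 and 153 against 273 and 361 (1.38 ± 0.39, adjusted p = 0.0883). Prlhr, the receptor gene for prolactin releasing hormone, had 72 and 49 against 161 and 139 (1.37 ± 0.44, adjusted p = 0.114). On the lower side, P2ry2, a receptor gene for ATP and UTP, had counts of 189 and 157 against 40 and 61 (-1.73 ± 0.44, adjusted p = 0.0626). Cckar, a cholecystokinin receptor gene, had 139 and 249 against 24 and 73 (-1.98 ± 0.59, adjusted p = 0.1). Enpp2, which encodes the secreted enzyme autotaxin, had 1114 and 1177 against 650 and 433 (-1.03 ± 0.26, adjusted p = 0.0649). Sstr5, a somatostatin receptor gene, had 460 and 520 against 249 and 258 (-0.91 ± 0.29, adjusted p = 0.118). Over the 12 alternative fits (11 for Prlhr and Cckar) the number in which a gene was called ran from 1 (Prlhr and Sstr5) to 6 (Enpp2). The groups of each of these 8 genes did not overlap, an arrangement that 27% of tested genes showed with YKL higher and 25.3% with YKL lower.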
